A study of Homo sapiens with 8 samples.

Results

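The nucleolar and ribosome biogenesis genes described here are 35 listed genes whose products build ribosomes or form the nucleolus, followed over 4 groups of arrays in 2 acute myeloid leukaemia lines treated with diclofenac or its solvent. Members were found by gene symbol, and every probe set annotated to 1 of the symbols was taken. For 28 of the 35 genes at least 1 probe set named that gene alone, which gave 42 probe sets, and 8 of the 28 genes had more than 1. Where a gene had several, the one with the highest mean over the 8 arrays stood for it. The 28 members stand among 11963 genes represented in the same way. Of the other listed genes, NOP56, DKC1, BOP1 and PPAN had only probe sets annotated to several genes, and GNL3, EBNA1BP2 and DDX18 were not analysed here.

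Ribosomes are assembled in the nucleolus, where RNA polymerase I copies the ribosomal DNA into a long precursor that holds the 18S and 28S rRNAs. Small nucleolar ribonucleoproteins, snoRNPs, guide the modification of that precursor: box C/D particles carry the methyltransferase fibrillarin, and box H/ACA particles carry the pseudouridine synthase dyskerin with its partners GAR1, NHP2 and NOP10. Processing and assembly factors then cut the precursor and build the small and the large subunit along separate lines, and growing cells, leukaemia cells among them, keep the whole programme active.

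HL-60 is an established promyelocytic leukaemia line and THP-1 an established monocytic leukaemia line. Each was cultured for 48 h with 100 µM diclofenac, a non-steroidal anti-inflammatory drug that blocks the cyclooxygenases, or with an equal amount of the solvent DMSO, and RNA of the whole culture was measured on single-colour Affymetrix HU-133A arrays. The groups were HL-60 with DMSO, HL-60 with diclofenac, THP-1 with DMSO and THP-1 with diclofenac, each with 2 arrays labelled as biological replicates, and the labels name no engineered change in either line. Each line stands for 1 patient's leukaemia, only 1 dose and 1 time were sampled, and fewer cells of a kind cannot be told apart from less RNA per cell.

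Promoter windows were searched for 1 feature, and whether the choice of the members bears on it was not tested. Promoter windows of 250 bases before to 50 bases after the gene start were listed by RefSeq, build GRCh38.p14, for 24 of the 28 measured members. The palindromic E-box CACGTG, a sequence bound by basic helix-loop-helix factors and read alike on both strands, occurred in at least 1 window of 12 of the 24, or 50%. The same letters occurred in 12.0% of the 9563 genes tested on the arrays that had a window, and in 8.77% of all 27305 genes with a window. The 12 were FBL, GAR1, NOP10, NOP2, NOP14, NAT10, RRP9, BYSL, WDR43, PES1, MRTO4 and DDX21. Of the 13 copies in their windows, 12 (92.3%) started within 50 bases of a gene start, against 527 of 1382 copies (38.1%) in the windows of all genes tested. The exception was 1 of the pair in NOP10, which started at base -170. A match of these letters describes the window and does not show that a factor binds there.

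The promoters of 3 members are printed because these genes had the smallest p-values of the module for diclofenac in THP-1 and differ in the motif. Each run holds 180 bases before and 20 bases after the start, 5′ to 3′ on the gene's strand, from RefSeq, build GRCh38.p14, and capitals mark CACGTG. FBL lies at chr19:39846360-39846559 on the minus strand with its motif starting at base 7 of the gene, NIP7 at chr16:69339592-69339791 on the plus strand, and WDR12 at chr2:202911654-202911853 on the minus strand, and neither of the latter holds the motif.
FBL: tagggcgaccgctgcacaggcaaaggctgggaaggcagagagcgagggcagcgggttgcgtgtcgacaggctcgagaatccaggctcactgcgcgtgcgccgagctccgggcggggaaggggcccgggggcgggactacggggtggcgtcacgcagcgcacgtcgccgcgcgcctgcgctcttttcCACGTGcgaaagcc
NIP7: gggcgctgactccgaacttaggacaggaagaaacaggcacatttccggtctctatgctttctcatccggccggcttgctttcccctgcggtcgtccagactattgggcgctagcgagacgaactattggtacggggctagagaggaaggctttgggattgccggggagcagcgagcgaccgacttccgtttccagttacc
WDR12: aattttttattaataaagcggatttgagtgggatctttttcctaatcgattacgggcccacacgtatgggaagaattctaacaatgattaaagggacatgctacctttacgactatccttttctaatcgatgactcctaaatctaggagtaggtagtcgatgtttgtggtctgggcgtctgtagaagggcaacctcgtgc

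Values below are log2 of the deposited intensity plus 50 after quantile normalization, with the replicates of a group in numerical order, and levels are not compared between genes. A change is called where limma's p-value, adjusted by Benjamini-Hochberg over 22215 probe sets, is under 0.05, and ± gives the moderated standard error of a difference of group means (n = 2 and 2 arrays, spread shared by all 8). THP-1 DMSO replicate 2 differed from every other array in quality. Its bacterial control probe sets, which have no target in the samples and serve as background, had a median intensity of 78, against 5.6 to 24.6 elsewhere. This array had 50.3% of probe sets above background, against 66.4% to 72.1%, and a correlation with its replicate of 0.898, against 0.977 to 0.984 for the other pairs. The median absolute difference between replicates over the members was 0.32 for the THP-1 controls, against 0.09 to 0.10 for the remaining pairs. THP-1 results are therefore also given without that array where it moves them. Such fits leave DMSO replicate 1 as the lone THP-1 control, so every difference from the THP-1 controls then shares the deviation of 1 array. The marker lists did not follow the labels of the lines throughout, and most promyelocytic markers were higher in THP-1. Of 7 promyelocytic markers measured, 6 were above background on all arrays in both lines. MPO was above it on 5 of 8 arrays, 2 of HL-60 and 3 of THP-1. With DMSO PRTN3, AZU1 and CFD were higher in THP-1 (13.60 against 11.94, 13.14 against 10.67 and 11.19 against 9.47). MPO, ELANE and MS4A3 were also higher there (7.80 against 6.52, 13.97 against 13.69 and 11.86 against 11.45). Only CTSG was higher in HL-60 (13.83 against 13.48). Of 6 monocytic markers measured, CD14 was above background on 3 THP-1 arrays and 0 HL-60 arrays and FLT3 on 4 and 2, LYZ and CSF1R were above it on all 8, and CD36 and MEIS1 were higher in HL-60 (11.72 against 7.57 and 9.44 against 8.46). Of the markers of other cells, HBB was above background on 8 arrays, KRT8, CD3E and CD2 on 7 each, MS4A1 on 6, CD79A on 4, CD3D on 3, CD7 on 2, KRT18 on 1, and EPCAM, KRT19 and ALAS2 on 0.

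All 28 members were above background on the 7 other arrays. On THP-1 DMSO replicate 2 the number was 24, with RRP9, RRP12, GRWD1 and POLR1B below. The median log2 value of the members was 10.35 and 10.33 on the HL-60 DMSO arrays, 10.33 and 10.38 on the HL-60 diclofenac arrays, 10.62 and 10.31 on the THP-1 DMSO arrays, and 10.62 and 10.60 on the THP-1 diclofenac arrays. The low value of the THP-1 DMSO group came from the array that stood apart, and the other 3 THP-1 arrays lay above all 4 HL-60 arrays. A median over levels of different genes does not show a difference of the members between the lines. Gene by gene, the median difference of THP-1 from HL-60 was -0.07 with diclofenac, where 15 of 28 members were lower in THP-1. With DMSO it was -0.13, and 0.04 without THP-1 DMSO replicate 2.

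**Figure D1:**
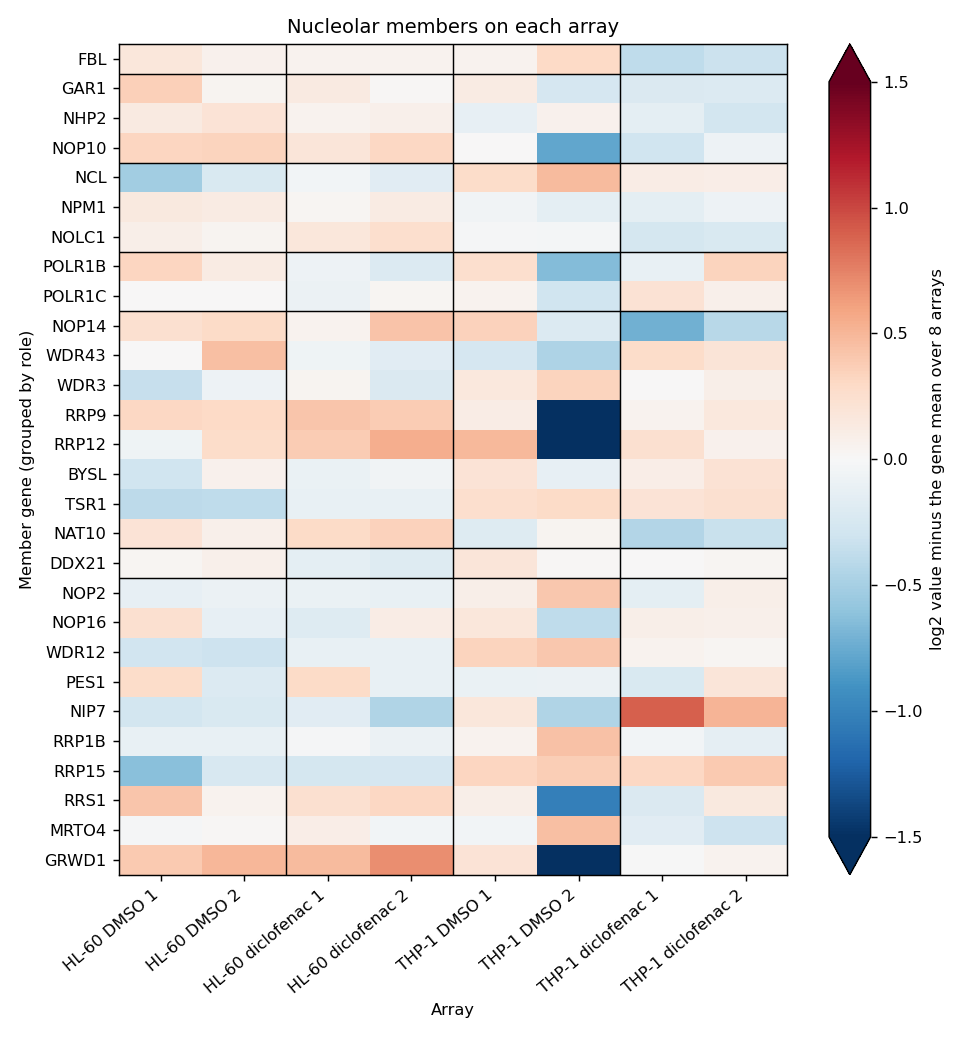
Log2 value of each of the 28 measured members on each of the 8 arrays, minus that gene's mean over the 8 arrays, with genes in rows grouped by role and arrays in columns. RRP9, RRP12 and GRWD1 are darkest on THP-1 DMSO replicate 2 (log2 values 6.85, 6.58 and 6.01), and FBL is blue on both THP-1 diclofenac arrays.

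In HL-60, diclofenac was followed by small differences among the members and by no call. The fitted log2 changes ran from -0.36 for POLR1B to 0.35 for RRP12, with 15 members above 0 and 13 below. Their median was 0.03, and the median over all genes was -0.00. By limma, 0 of 28 members were called, where 0.00836% of all genes were called. At an unadjusted p under 0.05 there were 2 members higher (7.14%, all genes 2.44%, bright genes 7.37%). There was 1 lower (3.57%, all genes 2.13%, bright genes 6.62%). The bright genes are the 1723 genes at least as bright as the median member, a background chosen after seeing the data. The groups did not overlap for 8 members higher with diclofenac (28.6%, all genes 20.6%, bright genes 26.6%). For 6 lower members they did not overlap either (21.4%, all genes 19.7%, bright genes 24.4%).

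TSR1, a GTPase-like factor of late small subunit maturation, had log2 values of 10.15 and 10.17 with DMSO and 10.43 and 10.43 with diclofenac in HL-60. Both diclofenac arrays lay above both controls, and the change was 0.27 ± 0.10 (limma, unadjusted p = 0.0245, adjusted p = 0.95). Its other probe sets gave 0.17 and 0.06. Nucleolin, NCL, an abundant RNA-binding protein that coats nascent pre-rRNA, had 12.61 and 12.90 with DMSO and 13.09 and 12.96 with diclofenac. Its groups did not overlap either, with a change of 0.27 ± 0.11 (limma, unadjusted p = 0.0383, adjusted p = 1). DDX21, a nucleolar RNA helicase, had 12.29 and 12.34 with DMSO and 12.12 and 12.07 with diclofenac. It was lower on both treated arrays, by -0.22 ± 0.08 (limma, unadjusted p = 0.0247, adjusted p = 0.95).

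The other HL-60 members with non-overlapping groups and the widest differences had larger errors. WDR43, a small subunit factor that joins the pre-rRNA early, had 9.61 and 10.06 with DMSO and 9.54 and 9.43 with diclofenac, a difference of -0.35 ± 0.18. POLR1B, a core subunit of RNA polymerase I, had 8.44 and 8.24 with DMSO and 8.04 and 7.91 with diclofenac, a difference of -0.36 ± 0.36. RRP12, which takes part in the export of both subunits, had 8.45 and 8.79 with DMSO and 8.89 and 9.06 with diclofenac, a difference of 0.35 ± 0.64. None of these 3 had an unadjusted p under 0.05 by limma with all 8 arrays. The errors come from the spread shared by all 8 arrays, THP-1 DMSO replicate 2 included, and do not measure HL-60 alone. On the THP-1 DMSO arrays RRP12 had 9.005 and 6.58, and POLR1B 8.37 and 7.46. Without THP-1 DMSO replicate 2 the HL-60 differences were -0.36 for WDR43, -0.38 for POLR1B and 0.37 for RRP12.

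In THP-1, the fitted changes of the members ran from -0.64 for NOP14 to 1.07 for GRWD1, again with no call. By limma, 0 of 28 members were called, where 0.184% of all genes were called, and the count was 15 when DMSO replicate 1 was left out and the array that stood apart was the lone control. At an unadjusted p under 0.05 there were 7 members lower with diclofenac, which is 25% of the members. The same share was 5.62% over all genes and 12.7% over the 1723 genes at least as bright as the median member, a background chosen after seeing the data. There were 2 members higher (7.14%), against 6.26% of all genes and 12.6% of the bright genes. The 7 lower were FBL, WDR12, NOLC1, NOP14, MRTO4, RRP1B and NCL, and the 2 higher were NIP7 and WDR43. The groups did not overlap for 12 members lower (42.9%, all genes 21.3%, bright genes 31.3%) and 3 higher (10.7%, all genes 19.3%, bright genes 23.6%). Even so the median change of the members was only -0.03, with 15 members below 0, and that of all genes was -0.01.

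**Figure D2:**
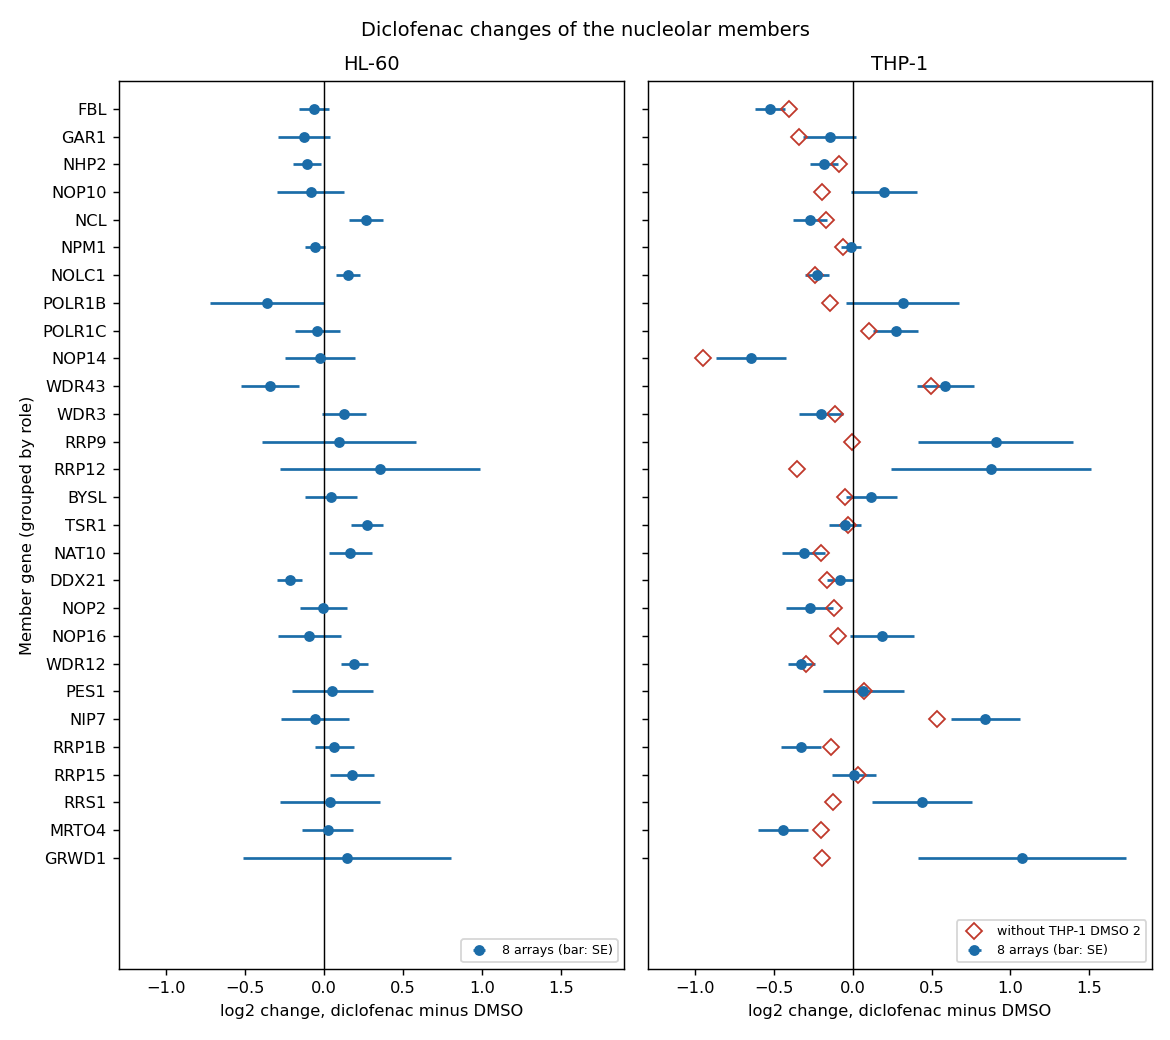
Log2 change with diclofenac of each measured member in HL-60 (left) and THP-1 (right), filled points with bars of 1 standard error from all 8 arrays, and open diamonds the THP-1 change without DMSO replicate 2. HL-60 changes lie between -0.36 and 0.35, while in THP-1 FBL, NOP14 and WDR12 lie below 0 and NIP7 and WDR43 above 0 under both fits, and 8 members (NOP10, POLR1B, RRP9, RRP12, BYSL, NOP16, RRS1 and GRWD1) change sign between the fits.

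Among the snoRNP proteins, fibrillarin stood out. FBL, the box C/D methyltransferase, had log2 values of 12.35 and 12.59 on the THP-1 DMSO arrays and 11.92 and 11.97 on the THP-1 diclofenac arrays. Both treated arrays lay below all 6 others, which spanned 12.34 to 12.59 over the 2 lines. The change was -0.52 ± 0.09 on the log2 scale, 1.44-fold lower, with the smallest p of the module (limma, unadjusted p = 0.000475, adjusted p = 0.119). Without THP-1 DMSO replicate 2 it was -0.40 (limma, adjusted p = 0.18).

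The box H/ACA proteins differed less. GAR1 had 10.16 and 9.78 with DMSO and 9.82 and 9.83 with diclofenac in THP-1, and 10.39, 10.08, 10.16 and 10.05 on the HL-60 arrays, DMSO first. NHP2 had 12.25 and 12.45 with DMSO and 12.23 and 12.10 with diclofenac in THP-1, and 12.51, 12.59, 12.43 and 12.45 in HL-60. NOP10 had 12.74 and 11.95 with DMSO and 12.43 and 12.65 with diclofenac in THP-1, and 13.06, 13.06, 12.91 and 13.04 in HL-60. NHP2 was lower on each diclofenac array than on each control in both lines, NOP10 was so in HL-60, and the groups of GAR1 overlapped in both. The fitted changes were -0.13 and -0.15 for GAR1, -0.11 and -0.18 for NHP2, and -0.09 and 0.20 for NOP10, HL-60 first, with no unadjusted p under 0.05 by limma. When THP-1 DMSO replicate 2 was left out, NOP10 in THP-1 turned to -0.19, and GAR1 and NHP2 were at -0.34 and -0.09.

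Of the nucleolar scaffold proteins, nucleolin and NOLC1 had lower values on the diclofenac arrays of THP-1, without a call. NCL had 13.41 and 13.61 with DMSO and 13.25 and 13.23 with diclofenac, a difference of -0.27 ± 0.11. NOLC1, a phosphoprotein chaperone of snoRNPs, had 11.89 and 11.87 with DMSO and 11.63 and 11.66 with diclofenac, a difference of -0.23 ± 0.08. Their groups did not overlap, with unadjusted p of 0.036 and 0.0154 and adjusted p of 0.441 and 0.378 by limma. Without THP-1 DMSO replicate 2, NCL was at -0.17 (limma, unadjusted p = 0.218) and NOLC1 at -0.24 (limma, unadjusted p = 0.0228). NPM1, nucleophosmin, a chaperone that binds ribosomal proteins, had 13.79 and 13.70 with DMSO and 13.70 and 13.76 with diclofenac in THP-1, and 13.98, 13.96, 13.87 and 13.96 in HL-60. It differed by -0.06 (HL-60) and -0.01 (THP-1), neither called, and by -0.06 in THP-1 without DMSO replicate 2. Its other 2 probe sets gave -0.25 and -0.38 in HL-60, where their groups did not overlap. Their unadjusted p was 0.0257 and 0.00328 and their adjusted p 0.953 and 0.665 by limma. In THP-1 they gave -0.07 and -0.10, and their groups overlapped. The other 2 probe sets of NOLC1 gave -0.04 and 0.64 in THP-1, so the lower value of NOLC1 rests on 1 probe set of 3. Without DMSO replicate 2 the other 2 gave 0.01 and -0.06.

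The assembly factors held the widest differences, in opposite directions. NOP14, a scaffold of the small subunit processome, had 10.04 and 9.48 with DMSO and 8.97 and 9.27 with diclofenac in THP-1, a difference of -0.64 ± 0.22 (limma, unadjusted p = 0.0187, adjusted p = 0.391). WDR12, which forms the PeBoW complex with PES1 and BOP1 on the early large subunit, had 11.51 and 11.59 with DMSO and 11.23 and 11.21 with diclofenac. Its difference was -0.33 ± 0.09 (limma, unadjusted p = 0.00471, adjusted p = 0.293). MRTO4, which holds the place of a stalk protein on the early large subunit, had 10.68 and 11.18 with DMSO and 10.56 and 10.42 with diclofenac, a difference of -0.44 ± 0.16. The 3 genes were lower on each treated array than on each THP-1 control.

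NIP7, a large subunit assembly factor that also binds pre-rRNA, went the other way. It had 10.55 and 9.92 with DMSO and 11.27 and 10.89 with diclofenac in THP-1, and 10.09, 10.15, 10.20 and 9.93 in HL-60. Both THP-1 diclofenac arrays exceeded all 6 others, with a difference of 0.84 ± 0.22, or 1.79-fold (limma, unadjusted p = 0.00433, adjusted p = 0.287). WDR43 had 9.35 and 9.14 with DMSO and 9.88 and 9.79 with diclofenac in THP-1, a difference of 0.59 ± 0.18 (limma, unadjusted p = 0.0118, adjusted p = 0.361). Without THP-1 DMSO replicate 2 the differences were 0.54 for NIP7 and 0.50 for WDR43, and -0.95 for NOP14, -0.30 for WDR12 and -0.20 for MRTO4.

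The array that stood apart weighed most on the dim members. GRWD1, a large subunit factor, had 8.53 and 6.01 with DMSO and 8.31 and 8.38 with diclofenac in THP-1, and its difference of 1.07 ± 0.66 turned to -0.19 without DMSO replicate 2. RRP9, a small subunit factor bound to the U3 snoRNP, had 8.68 and 6.85 with DMSO and 8.62 and 8.72 with diclofenac, and its difference of 0.91 ± 0.49 turned to -0.01. RRP12 had 9.005 and 6.58 with DMSO and 8.75 and 8.58 with diclofenac, and its difference of 0.88 ± 0.64 turned to -0.35. In these 3 genes the high THP-1 changes came from 1 control array on which the gene was below background (log2 values 6.01, 6.85 and 6.58). Over the module, 23 of 28 members were lower with diclofenac without that array, with a median of -0.13, and 5 were higher. Of all genes 51.1% were lower in that fit, and of the bright genes 55.7%. By limma, 0 members were called in it, where 0.301% of all genes were called higher and 0.0167% lower. The members at an unadjusted p under 0.05 numbered 4 lower and 2 higher (all genes 4.92% and 5.89%). In both directions the bright genes passed that level more often than all genes did. With a lone THP-1 control these counts are not read as an excess of members.

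With all arrays, the other members showed no common direction in THP-1. Without DMSO replicate 2, only POLR1C, PES1 and RRP15 among them were above 0. RRP1B, a nucleolar factor of the large subunit, had 11.57 and 11.96 with DMSO and 11.48 and 11.39 with diclofenac, a difference of -0.33 ± 0.13 (limma, unadjusted p = 0.0299) that was -0.14 without DMSO replicate 2. Its other probe set gave 0.17 with all arrays and -0.11 without that one. NAT10, an RNA acetyltransferase that modifies 18S rRNA, stood at -0.31 ± 0.14, and NOP2, a methyltransferase of 28S rRNA, at -0.27 ± 0.15. WDR3, a part of the small subunit processome, was at -0.20 and POLR1C, a subunit that RNA polymerases I and III share, at 0.27, while PES1 of the PeBoW complex was at 0.07 under both fits, BYSL of the small subunit at 0.12 and NOP16 of the large subunit at 0.19. The other probe sets of NOP16 gave -0.09, -0.26 and -0.76 with all arrays, those at -0.26 and -0.76 above background on 0 and 1 of 8 arrays. Without DMSO replicate 2, BYSL and the representative of NOP16 were at -0.05 and -0.09, NAT10 and NOP2 at -0.20 and -0.12, and WDR3 and POLR1C at -0.11 and 0.10. RRS1, which takes part in building the large subunit, was at 0.44 ± 0.32 with all arrays and at -0.12 without that one, and POLR1B was at 0.32 and -0.15. RRP15 was at 0.01 and TSR1 at -0.05, and at 0.03 and -0.03 without that array, and DDX21 at -0.08 and -0.17.

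**Figure D3:**
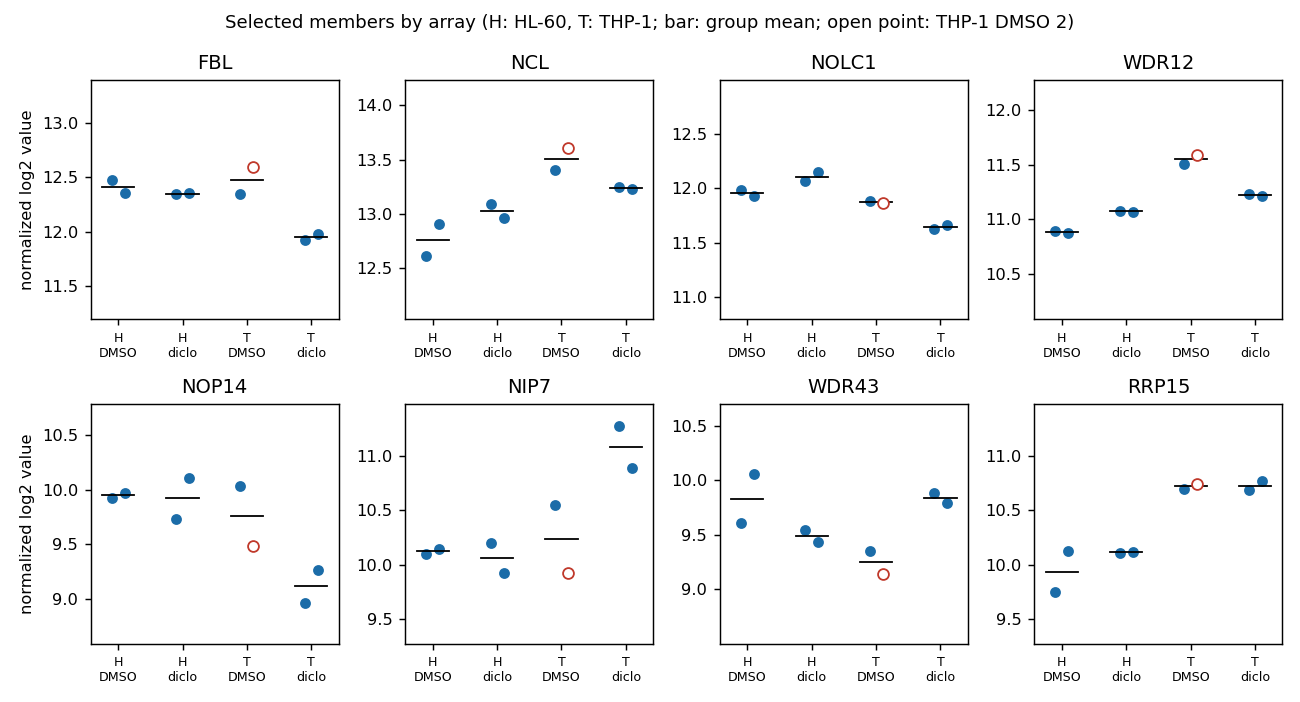
Normalized log2 value of 8 members on each array, with a bar at each group mean and an open point for THP-1 DMSO replicate 2, all panels spanning the same range of log2 units. The THP-1 diclofenac points lie lowest for FBL (11.92 and 11.97) and NOP14 (8.97 and 9.27) and highest for NIP7 (11.27 and 10.89), and both THP-1 groups lie above both HL-60 groups for RRP15.

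The THP-1 change minus the HL-60 change was called for 0 of 28 members by limma, where 0% of all genes were called, and for 14 when THP-1 DMSO replicate 1 was left out. At an unadjusted p under 0.05, 5 members had the lower value in THP-1 (17.9%, all genes 3.42%, bright genes 9%). There were 2 with the higher value (7.14%, all genes 3.98%, bright genes 10.3%). The lower were WDR12 (-0.52 ± 0.12, unadjusted p = 0.00244 and adjusted p = 0.414 by limma), NCL at -0.54, NOLC1 at -0.38, FBL at -0.46 and NAT10 at -0.48. The higher were WDR43 (0.93 ± 0.26, unadjusted p = 0.00647 and adjusted p = 0.517 by limma) and NIP7 at 0.90. All of these but FBL had fitted changes of opposite sign in the 2 lines, with NIP7 in HL-60 at -0.06. Without THP-1 DMSO replicate 2 the median over the members was -0.16 with 20 of 28 below 0, and 8 were lower and 2 higher at that unadjusted level (all genes 5.24% and 5.53%). Here too the bright genes passed that level more often than all genes in both directions, and the THP-1 control was a lone array. Averaged over both lines, the change was called for 0 of 28 members by limma, where 0.15% of all genes were called, and for 9 without THP-1 DMSO replicate 1. Its median was -0.01, and -0.04 without replicate 2. With all arrays, at an unadjusted p under 0.05 it was higher for 1 member (3.57%) and lower for 3 (10.7%). The same shares were 4.41% and 3.57% of all genes, and 10.5% and 10.1% of the bright genes.

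The direction of the module as a whole depended on the scale of the arrays. On the deposited scale, without quantile normalization, all genes together had a median change of -0.06 (HL-60) and -0.15 (THP-1), and these became 0.10 and 0.20 once each array was centred on its median. Relative to that median the members stood at 0.10 (HL-60) and 0.19 (THP-1) under both of these scalings, and at 0.03 and -0.02 after quantile normalization. Relative to the bright genes they stood at -0.01 and -0.10 without it. FBL in THP-1 was at -0.34 on the deposited scale, 0.02 after centring and -0.19 relative to all genes. For WDR12 these were -0.17, 0.18 and -0.02, and for NCL -0.09, 0.26 and 0.06. NOP14 at -0.70, -0.35 and -0.55 and NIP7 at 0.90, 1.25 and 1.05 kept their direction.

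Calls were found between the lines rather than between treatments. With DMSO, 5 of 28 members differed between THP-1 and HL-60 by limma, where 18.7% of all genes were called. The share of members called was near that of all genes, and in each direction below that of the bright genes. There were 4 members higher in THP-1 (14.3%, all genes 9.31%, bright genes 24.3%) and 1 lower (3.57%, all genes 9.4%, bright genes 23.4%). The groups did not overlap for 7 members higher (25%, all genes 26.9%, bright genes 40.7%). For 8 lower members they did not overlap either (28.6%, all genes 26%, bright genes 35.6%). The median difference was -0.13, and that of all genes 0.03. Without THP-1 DMSO replicate 1 the members called numbered 17, and without replicate 2 the median was 0.04.

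Higher in THP-1 were RRP15, NCL, WDR12 and TSR1. RRP15, a large subunit factor, had 9.75 and 10.13 in HL-60 and 10.70 and 10.74 in THP-1 with DMSO. NCL and WDR12 likewise lay higher on both THP-1 control arrays, at 13.41 and 13.61 against 12.61 and 12.90 for NCL and at 11.51 and 11.59 against 10.89 and 10.87 for WDR12. TSR1 had 10.79 and 10.83 in THP-1 against 10.15 and 10.17 in HL-60. The differences were 0.78 ± 0.14 for RRP15, 0.75 ± 0.11 for NCL, 0.67 ± 0.09 for WDR12 and 0.65 ± 0.10 for TSR1, with limma's adjusted p at 0.00654, 0.00213, 0.00114 and 0.00272. These 4 were also called without THP-1 DMSO replicate 2, at 0.78, 0.65, 0.64 and 0.65, where 11.4% of all genes were called higher. The other 2 probe sets of TSR1 gave -0.56 and -0.43, so with all arrays its direction rests on the representative. Without THP-1 DMSO replicate 2 these 2 probe sets gave -0.21 and 0.18.

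NPM1 was the member called lower in THP-1, at 13.79 and 13.70 against 13.98 and 13.96 in HL-60, a difference of -0.23 ± 0.06 (limma, adjusted p = 0.0449). Without THP-1 DMSO replicate 2 the difference was -0.19. Its other 2 probe sets gave -0.58 and -0.56, with limma's adjusted p at 0.00364 and 0.00463. Without that array these 2 gave -0.47 and -0.55. With diclofenac the representative stood at -0.19 and these 2 at -0.40 and -0.28, with limma's adjusted p at 0.105, 0.0229 and 0.1. The largest differences of the module, -1.49 for GRWD1 and -1.11 for RRP9, were not called and shrank to -0.25 and -0.20 without that array. NOP10 stood at -0.71 ± 0.21 (limma, adjusted p = 0.0559) and at -0.33 without it.

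With diclofenac, 6 of 28 members differed between the lines by limma, where 16.1% of all genes were called. There were 2 higher in THP-1 (7.14%, all genes 8.48%, bright genes 21.9%) and 4 lower (14.3%, all genes 7.63%, bright genes 21.2%). Leaving out 1 array gave 10 members called without THP-1 DMSO replicate 2, 0 without HL-60 diclofenac replicate 2 or THP-1 diclofenac replicate 1, 1 without HL-60 diclofenac replicate 1 and 2 without THP-1 diclofenac replicate 2. The groups did not overlap for 9 members higher (32.1%, all genes 30.8%, bright genes 44.5%). For 13 lower members they did not overlap either (46.4%, all genes 31.4%, bright genes 39.8%). RRP15 had 10.69 and 10.77 in THP-1 against 10.11 and 10.12 in HL-60, a difference of 0.61 ± 0.14, and was the one member called in both line comparisons. Its other probe set gave 0.04 with DMSO and 0.30 with diclofenac, neither called, and 0.81 with DMSO when THP-1 DMSO replicate 2 was left out. NIP7 was 1.01 ± 0.22 higher, or 2.02-fold. Limma's adjusted p was 0.0224 for RRP15 and 0.016 for NIP7.

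Lower in THP-1 with diclofenac were FBL, NOLC1, NOP14 and NAT10. FBL had 12.34 and 12.35 in HL-60 against 11.92 and 11.97 in THP-1, and NOLC1 had 12.07 and 12.15 against 11.63 and 11.66. NOP14 had 9.74 and 10.11 in HL-60 against 8.97 and 9.27 in THP-1. NAT10 had 10.27 and 10.33 against 9.55 and 9.65, and with DMSO 10.20 and 10.06 against 9.80 and 10.02. The differences with diclofenac were -0.40 ± 0.09, -0.46 ± 0.08, -0.81 ± 0.22 and -0.70 ± 0.14 in that order, with limma's adjusted p at 0.0251, 0.00466, 0.0469 and 0.0107. With DMSO the same genes stood at 0.06, -0.08, -0.19 and -0.22 and were not called. The other 2 probe sets of NOLC1 gave -0.25 and 0.03 with diclofenac. The sign of the line difference was the same with DMSO and with diclofenac for 21 of 28 members.

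**Figure D4:**
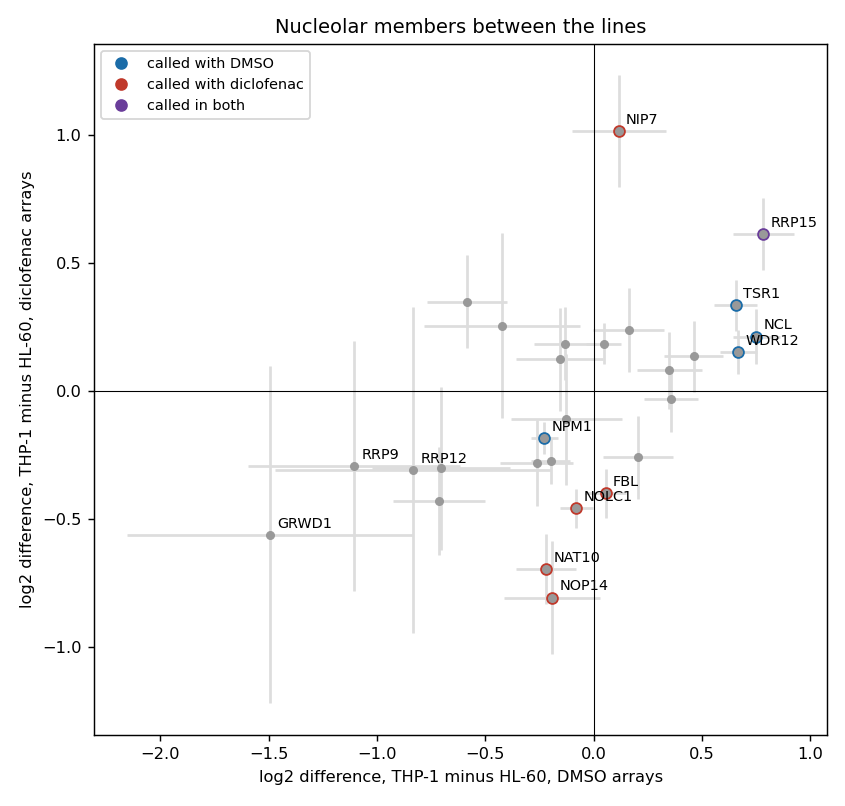
Difference between THP-1 and HL-60 of each member with DMSO (horizontal) and with diclofenac (vertical), in log2 units, with grey bars of 1 standard error and coloured rings for members called by limma. RRP15 is ringed in both comparisons (0.78 and 0.61), and FBL, NOLC1, NAT10 and NOP14 lie below 0 on the vertical axis at -0.40 to -0.81.

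The members were also set apart by the E-box, a split chosen after the data were seen and given without a test. With diclofenac, 8 of the 12 members that hold the motif were lower in THP-1 than in HL-60, with a median of -0.27, and 3 of the 12 without it, with a median of 0.17. With DMSO the numbers were 7 and 6 of 12, with medians of -0.16 and -0.01. The change with diclofenac in THP-1 had a median of -0.11 in the 12 with the motif and of -0.00 in the 12 without, which became -0.18 and -0.09 without THP-1 DMSO replicate 2.

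The rRNA control probe sets, which target the 5′, middle and 3′ parts of 18S and 28S rRNA, gave a call for diclofenac in THP-1, which no member did. These controls read rRNA that was carried into a labelling made for polyadenylated RNA, and are no measure of rRNA in the cell. For 28S 5′ the deposited intensities were 3106.7 and 1875.7 on the THP-1 DMSO arrays and 11803.7 and 10775.7 on the THP-1 diclofenac arrays. The HL-60 controls had 6311.4 and 5169.9, and the treated HL-60 arrays 7174.8 and 6849.5. Both treated THP-1 arrays exceeded all 6 others. In a fit of 22221 probe sets that held these controls too, the change in THP-1 was 2.06 ± 0.16, or 4.16-fold (limma, adjusted p = 0.00667). Leaving out each array in turn gave changes of 1.87 to 2.25, with 1.87 without DMSO replicate 2. The call did not hold in all of these fits. This call was lost after median centring, where the change was 2.55 (limma, adjusted p = 0.5). It was also lost without the intensity trend (limma, adjusted p = 0.359) and with the THP-1 arrays fitted alone (limma, adjusted p = 0.11).

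The middle 28S probe set had 1300.3 and 990 with DMSO and 3677.5 and 2572 with diclofenac in THP-1, a change of 1.33 ± 0.19 that was not called (limma, adjusted p = 0.0544). In HL-60 it had 1448, 1300.1, 1703.3 and 1397.5, DMSO first. The 3′ probe set of 28S was dim, at 29.9 to 204.6 over the 8 arrays, and had no call. In THP-1 it stood at -0.68 ± 0.45 with diclofenac, opposite in sign to the other 28S probe sets, and at -0.94 without DMSO replicate 2. The 18S 5′ probe set had 3632.1 and 1983.6 with DMSO and 4745.9 and 3971.8 with diclofenac in THP-1, and 11098.7, 9771.2, 9235.4 and 9777.9 in HL-60. The middle 18S probe set had 4414.1, 2791.7, 5657.7 and 4535.5 in THP-1 and 12698.6, 13533.8, 11560.8 and 12473.9 in HL-60. These probe sets of 18S were lower on all THP-1 arrays than on all HL-60 arrays. In THP-1 their changes with diclofenac were 0.55 and 0.36 (limma, adjusted p = 0.369 and 0.422), so 28S 5′ and 18S 5′ differed in size of change within the same arrays. The 18S 3′ probe set stayed between 157.2 and 322.4 over the 8 arrays. In HL-60 no rRNA control was called, with 28S 5′ at 0.21 and 18S 5′ at -0.28.

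**Figure D5:**
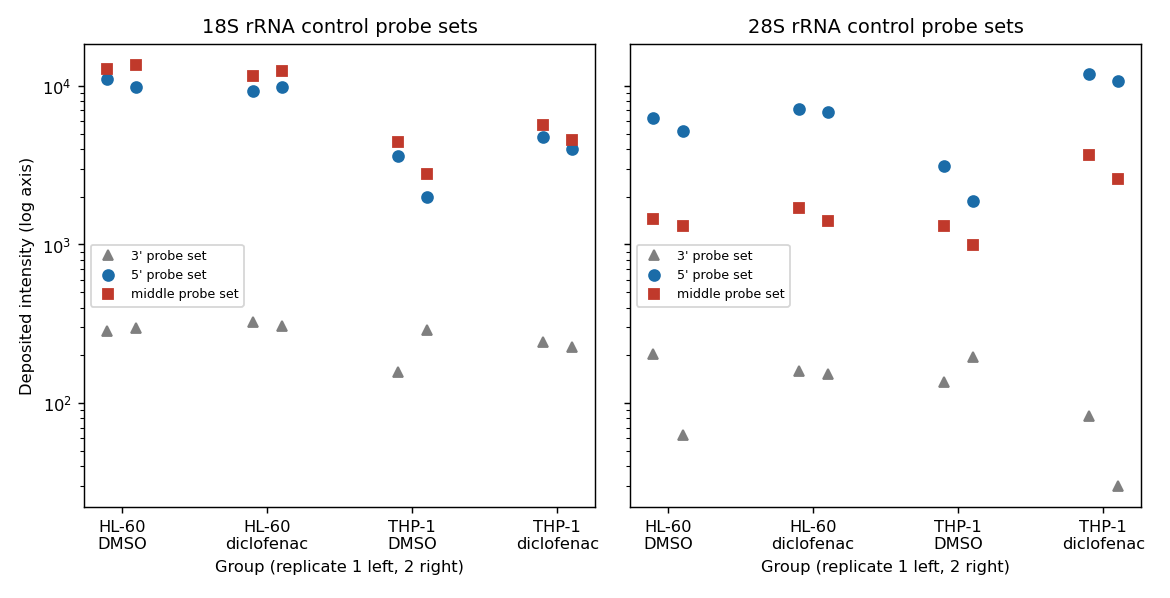
Deposited intensity, on a log axis, of the 5′, middle and 3′ control probe sets of 18S (left) and 28S rRNA (right) on each array, replicate 1 left of replicate 2 in each group. The 28S 5′ points of THP-1 with diclofenac (11803.7 and 10775.7) lie above those of all other groups, and the 18S 5′ and middle points of THP-1 lie below those of HL-60 in both treatments.

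Between the lines with DMSO, 18S 5′ was lower in THP-1 by -1.91 ± 0.17 and middle 18S by -1.83 ± 0.14, with limma's adjusted p at 0.00018 and 6.12e-05. The 28S 5′ probe set was lower by -1.15 ± 0.16 with DMSO (limma, adjusted p = 0.00182) and higher by 0.69 ± 0.16 with diclofenac (limma, adjusted p = 0.0238). The members of the module had no common shift of this size in either comparison, with medians of -0.13 and -0.07. Whether the rRNA carried into the labelling bears on the members' values was not tested.

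The wider pathway also held no call for diclofenac. Of 116 other ribosome biogenesis genes listed by role, 98 were measured, and limma called 0 of them for diclofenac in either line. In HL-60, 2 were higher at an unadjusted p under 0.05 (2.04%, all genes 2.44%) and 0 lower (all genes 2.13%). In THP-1, 3 were higher (3.06%, all genes 6.26%) and 6 lower (6.12%, all genes 5.62%). DDX27, a helicase of the large subunit, had the smallest p in THP-1 at -0.46 ± 0.13 (limma, unadjusted p = 0.00639, adjusted p = 0.312) and stood at -0.50 without DMSO replicate 2. UTP14A, a small subunit processome protein, was at 0.84 with all arrays and 0.27 without that one. The median of the 98 was 0.01 in both lines. Their THP-1 median without DMSO replicate 2 was -0.12, with 69 of the 98 below 0 (70.4%, all genes 51.1%, bright genes 55.7%).

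Between the lines with DMSO, limma called 8 of the 98 higher in THP-1 and 12 lower, or 8.16% and 12.2% against 9.31% and 9.4% of all genes. BRIX1, a large subunit factor, was 2.06 ± 0.29 higher and EMG1, a methyltransferase of 18S rRNA, 1.13 ± 0.17 higher, with limma's adjusted p at 0.00188 and 0.00299. UTP14A was lower by -2.47 ± 0.33 and UTP11, another small subunit processome protein, by -1.06 ± 0.11, with limma's adjusted p at 0.0014 and 0.000305. With diclofenac 6 were called higher and 8 lower, or 6.12% and 8.16% against 8.48% and 7.63% of all genes.

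The genes of the ribosome itself moved little. Of 52 cytosolic ribosomal protein genes, limma called 0 for diclofenac in either line, with medians of 0.08 in HL-60 and -0.04 in THP-1. In HL-60, 41 of the 52 were above 0. At an unadjusted p under 0.05 by limma 13 were higher there (25%, all genes 2.44%, bright genes 7.37%) and 0 lower (all genes 2.13%, bright genes 6.62%). In THP-1, 2 were higher (3.85%, all genes 6.26%, bright genes 12.6%) and 4 lower (7.69%, all genes 5.62%, bright genes 12.7%). The bright genes were set by the median member and were not matched to the ribosomal protein genes. Of 51 mitochondrial ribosomal protein genes none was called either. At that unadjusted level 1 was higher (1.96%, all genes 2.44%) and 0 lower (all genes 2.13%) in HL-60. In THP-1, 4 were higher (7.84%, all genes 6.26%) and 3 lower (5.88%, all genes 5.62%).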

How the data were processed

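Per the labels, total RNA of 2 replicates in each of 4 groups was labelled as biotinylated cRNA for Affymetrix arrays. The deposited intensities are linear, 1 per probe set and array, and their 2% trimmed mean was 500.1 to 500.2 on each array. The software that made them is not given in the sources used here.

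Values were turned to log2 of the deposited intensity plus 50 and quantile normalized over 22277 probe sets, and 62 controls were left out of the fit. Of 22215 probe sets tested, 19064 had 1 gene symbol in the platform annotation, 1043 had several and 2108 had none. The 4 group means came from 1 limma fit (version 3.58.1, R 4.3.3) of all 8 arrays (4 residual and 4.41 prior degrees of freedom, intensity trend). A probe set was above background on an array when it exceeded the 95th percentile of that array's 27 bacterial controls. The method was tested on simulated data. Figures used matplotlib 3.10.9.

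The members and lists were chosen with earlier results of these data known, so no list was tested. Every measured member is named. Values on each array were due for the snoRNP and abundant nucleolar proteins, all called members, and per contrast up to 6 members with the largest change among those with non-overlapping groups. RRP1B was added after its values were seen. From the other biogenesis genes, up to 4 per direction were named by smallest p. Alternatives were the deposited scale, median centring, offsets of 16 and 1, the dimmest 40% left out, no trend, a replicate block, only the arrays of a contrast, mean of probe sets, no shared-transcript probe sets, and each array left out. The fit with rRNA controls, the counts at an unadjusted p, the list counts without THP-1 DMSO replicate 2 and the bright-gene background were chosen after seeing the data.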

Additional observations from a re-analysis of the deposited data

How the results depend on the processing

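For diclofenac in each line, no setting that kept both replicates of each group called a member. Under median centring the median change of the members was 0.21 in HL-60, 0.39 in THP-1, 0.33 averaged over the lines and 0.16 for the difference of the effects, and the line difference with DMSO was -0.39. The medians of all genes were then 0.10, 0.20, 0.15, 0.10 and -0.07 in that order, so the members stood -0.33 from all genes in the line difference. Centring also turned FBL in THP-1 to 0.015 and WDR12 to 0.18. When all probe sets of a gene were averaged, TSR1 turned to -0.11 between the lines with DMSO.

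The 5 calls between the lines with DMSO became 3 on the deposited scale, 0 after centring, 8 without the dimmest 40%, 3 with only the arrays of the contrast, 3 with the mean of probe sets and 2 without shared-transcript probe sets (17 members left). The 6 calls with diclofenac became 0 after centring, 1 without the trend, 11 with only the arrays of the contrast and 3 without shared-transcript probe sets.

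Leaving out each array in turn gave medians of -0.00 to 0.03 in HL-60, -0.13 to 0.02 in THP-1, -0.05 to 0.02 on average, -0.16 to 0.052 for the difference, -0.15 to 0.039 between the lines with DMSO and -0.11 to 0.01 with diclofenac. The calls ranged over 0 to 0, 0 to 15, 0 to 9, 0 to 14, 4 to 17 and 0 to 10 in the same order. The high counts of 15, 9, 14 and 17 came without THP-1 DMSO replicate 1, where the array that stood apart is the lone control and is assumed to vary like the others. The 10 came without THP-1 DMSO replicate 2, and the 0 without HL-60 diclofenac replicate 2 or THP-1 diclofenac replicate 1. Calls with diclofenac were also 1 without HL-60 diclofenac replicate 1 and 2 without THP-1 diclofenac replicate 2.

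The labels do not say that numbers pair arrays, and deviations of same-numbered arrays had correlations of -0.00 (HL-60) and -0.01 (THP-1). A replicate block left 5 calls between the lines with DMSO and 5 with diclofenac, with NPM1 at an adjusted p of 0.0865 and NOP14 at 0.0673 by limma. The cause of these shifts was not tested. With 2 arrays per group, small changes of the members cannot be resolved, and RRP9, RRP12, GRWD1 and POLR1B have no value above background on 1 control array.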
